A study of Mus musculus with 3 samples.

Results

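The genes described here encode the scaffold of the extracellular matrix: collagens, laminins, nidogens, small proteoglycans, elastic fibre proteins and a few large adhesive glycoproteins. They were chosen by name, 46 in all, and 41 of them had a probe that could be named through a RefSeq accession, out of 16620 genes named in this way. Col6a3, Col12a1, Lama5, Hspg2 and Vcan had no such probe and are named only. The 41 genes were read by 64 probes, and the brightest probe of each gene, which stands for it below, was well above background on 6 of 6 arrays. All 41 were therefore among the 13489 genes tested, without a filter deciding which of them entered.

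The tissue was the gonad of male mouse embryos of the MCH line with the genotype Cyp26b1-/-, dissected at E12.5, E13.5 and E14.5 with no further treatment, and RNA was hybridised to 1-colour Agilent arrays, 2 per stage. Cyp26b1 encodes the cytochrome P450 that clears retinoic acid in the fetal testis. Every group carries the same knockout, so the comparisons describe change with stage inside the mutant gonad, and gonads of a control genotype were not analysed here. The series calls the 2 arrays of a stage biological duplicates, but the labels do not say how many embryos or gonads went into each, so the p-values cover the spread between these arrays only. The probe for Cyp26b1 itself read between 3.83 and 4.96 on the log2 scale used below on all arrays; whether it lies in the deleted part is not known, so it does not check the genotype. All 8 Sertoli cell, 6 germ cell and 4 fetal Leydig cell genes with a probe were well above background on all 6 arrays. So were all 6 erythroid genes, 6 of 7 mesonephros and duct genes, 3 of 4 glomerulus genes and 7 of 10 cartilage genes. Detection alone therefore does not check the tissue. Between 65.3% and 70.2% of probes were well above background per array, and 0 spots were saturated.

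In the fetal testis, Sertoli cells and the peritubular cells around them build a basement membrane along the cords, made of a laminin network and a type IV collagen network that nidogens join. The interstitium between cords holds fibrillar collagens, whose fibre width and spacing are set by small leucine-rich proteoglycans, and elastic fibres, in which elastin is laid on fibrillin microfibrils and cross-linked by lysyl oxidase. Type VI collagen forms beaded filaments next to basement membranes.

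From E12.5 to E14.5 the 4 measured proteoglycans, the elastic fibre genes Eln, Lox and Fbln5, and the type VI collagens Col6a1 and Col6a2 rose, while most basement membrane genes moved little and a few type II and type IV collagens fell. Of the 41 genes, 16 rose and 5 fell (limma, Benjamini-Hochberg adjusted p below 0.05). Over all 13489 genes the share past the threshold was 46.7%, with 25.5% higher and 21.2% lower, against 51.2% of the matrix genes. The median log2 change of the matrix genes was 0.36, and that of all genes was 0.03. By class, 4 of 4 proteoglycans rose (median 1.78), 2 of 4 other interstitial collagens rose (0.71), 3 of 7 fibrillar collagens rose and 1 fell (0.46), 5 of 10 elastic fibre and glycoprotein genes rose and 2 fell (0.35), and 2 of 16 basement membrane genes rose and 2 fell (-0.15). Leaving out 1 array gave between 15 and 21 calls. The 2 arrays of E12.5 shared 1 slide and the other 4 shared the next one. Stage and slide therefore cannot be told apart in any comparison with E12.5, and only the step from E13.5 to E14.5 stayed on the same slide. In RNA from whole gonads, more cells of a type and more RNA per cell cannot be told apart either.

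**Figure D1:**
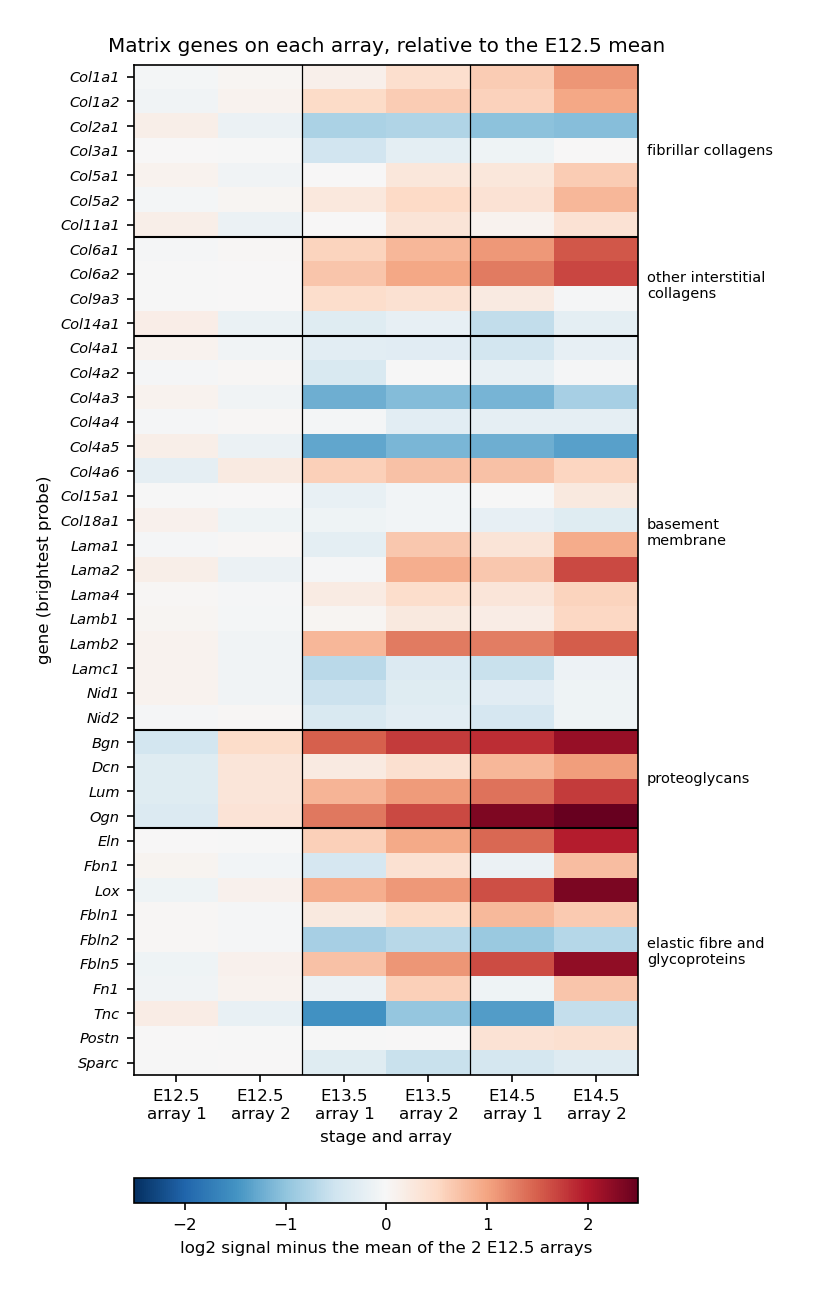
Log2 signal of each of the 41 matrix genes (rows, brightest probe) on each of the 6 arrays (columns), minus the mean of the 2 E12.5 arrays, with red higher and blue lower. Proteoglycans, Eln, Lox, Fbln5, Col6a1, Col6a2 and Lamb2 are red on all 4 later arrays, Col2a1, Col4a3, Col4a5, Fbln2 and Tnc are blue on them, and most other basement membrane genes stay pale.

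In the first step, E13.5 against E12.5, 12 matrix genes rose and 6 fell, 43.9% of 41, where 32.0% of all genes passed (18.0% higher, 14.0% lower). The risers were Bgn, Ogn, Lamb2, Lox, Lum, Fbln5, Col6a2, Eln, Col6a1, Col4a6, Col1a2 and Col9a3, and the fallers were Tnc, Col4a5, Col4a3, Col2a1, Fbln2 and Sparc. The median change was 0.17, against 0.04 over all genes. The comparison over the whole window uses the same E12.5 arrays, so the calls of both are not independent. The count of calls in the first step leans on each array, as does the count over all genes. Leaving out an array of E12.5 or E13.5 lowered both. Col4a3, Col4a5 and Fbln2 alone passed with each array left out; the other 15 lost the call at least once, with adjusted p between 0.0525 and 0.228 in those fits. In the second step, E14.5 against E13.5, 0 of the 41 passed, against 0.0519% of all genes (7 genes: 0.0445% higher and 0.00741% lower). Correcting the background by normexp gave 4 calls there, all higher (Ogn, Eln, Lox and Fbln5), and a trended robust prior gave 2 (Col6a2 and Eln). The median change in this step was 0.22, against -0.01 over all genes.

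The stage means of 22 of the 41 genes were higher at each later stage, where 30.2% of all genes had that order. Another 7 had means lower at each later stage, against 28.2% of all genes. In 10 the mean was lowest at E13.5, and in 2, Col9a3 and Col4a6, it was highest there. All 4 proteoglycans were in the rising order, and of the 16 basement membrane genes the 5 laminins Lama1, Lama2, Lama4, Lamb1 and Lamb2 were. The arrays of E13.5 and E12.5 did not overlap for 30 of 41 genes, against 71.9% of all genes, those of E14.5 and E12.5 did not for 34 of 41 genes, against 75.5%, and those of E14.5 and E13.5 did not for 19, against 55.7%.

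**Figure D2:**
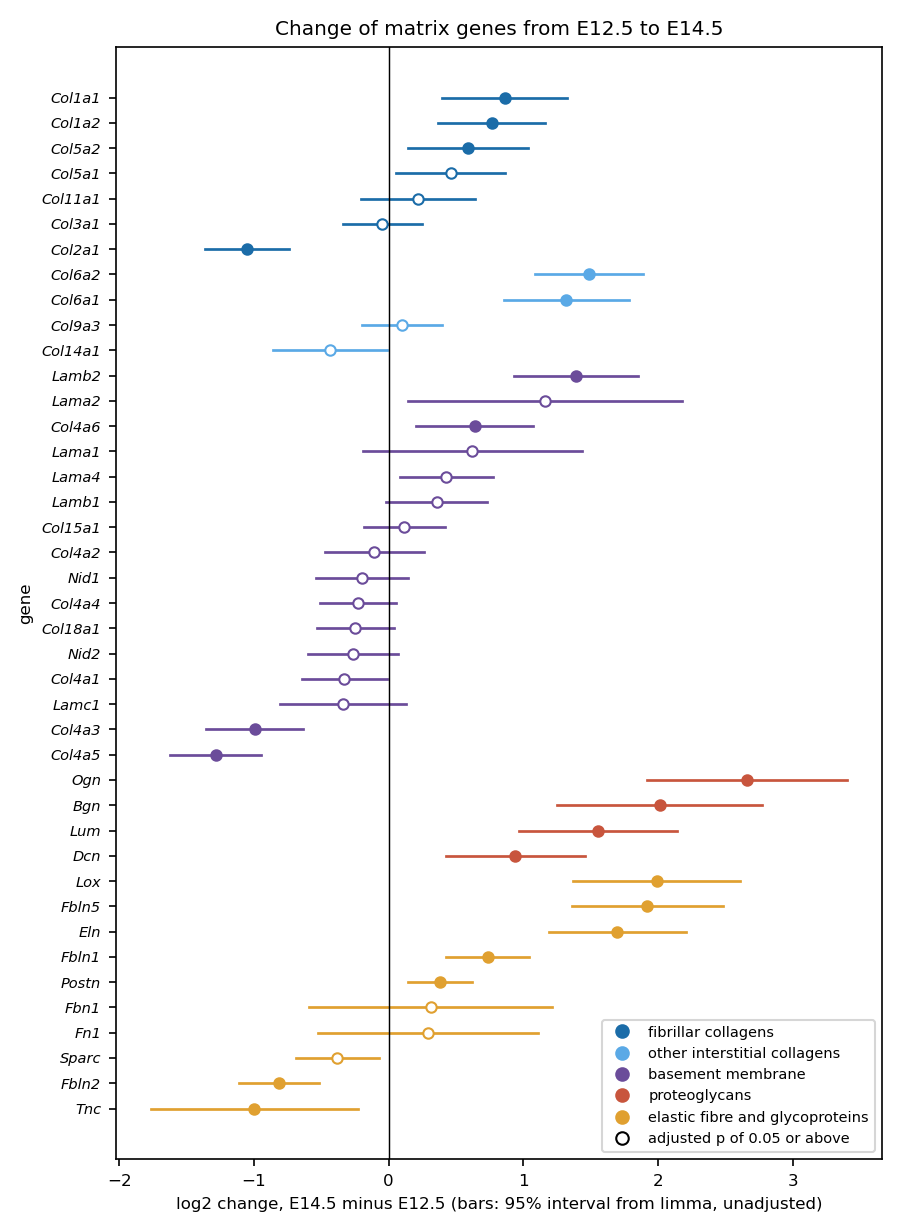
Log2 change from E12.5 to E14.5 for each of the 41 genes, sorted within class, with the unadjusted 95% interval from limma; filled points passed the adjusted threshold. All 4 proteoglycans are filled and to the right of 0, from 0.94 to 2.66, while 12 of the 16 basement membrane genes are open.

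The small leucine-rich proteoglycans had the highest median change of the 5 classes, and Ogn and Bgn the largest rises of the 41 genes. Ogn encodes osteoglycin, a small keratan sulfate proteoglycan. Its log2 signal, relative to each array's 75th percentile, was -1.96 and -1.29 in the E12.5 pair of arrays, -0.30 and 0.02 in the E13.5 pair and 0.70 and 1.36 in the E14.5 pair. No array overlapped with one of another stage, and from E12.5 to E14.5 the gene rose by 2.66 ± 0.30 (SE, n = 2 per stage), a 6.33-fold difference (limma adjusted p = 0.00194). Its change in each step was of like size, 1.49 and 1.17, and the latter did not pass (adjusted p = 0.146).

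Bgn encodes biglycan, which binds collagen fibrils and carries glycosaminoglycan chains. It read -1.96 and -1.03 in the E12.5 pair, 0.00 and 0.24 in the E13.5 pair and 0.34 and 0.69 in the E14.5 pair. The E12.5 arrays were lowest and also lay furthest apart. The rise over the window was 2.01 ± 0.31 (4.03-fold, limma adjusted p = 0.00467), of which 1.62 fell between E12.5 and E13.5. The E13.5 call was lost without the second E13.5 array (1.5, adjusted p = 0.0732).

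Lum and Dcn, for lumican and decorin, both of which bind fibrillar collagen, were present throughout and rose less. Lum went from 1.48 and 2.07 at E12.5 through 2.62 and 2.85 to 3.13 and 3.53 at E14.5, with no overlap between stages, and rose by 1.56 ± 0.24 (2.94-fold, limma adjusted p = 0.00457). Dcn read 3.62 and 4.21, then 4.15 and 4.32, then 4.75 and 4.97. Its E12.5 and E13.5 arrays overlapped, and its rise of 0.94 ± 0.21 over the window (limma adjusted p = 0.015) did not pass with the second E14.5 array left out (0.83, adjusted p = 0.072). At all 3 stages the second array read higher than the first for all 4 proteoglycans, with a median difference of 0.63, 0.24 and 0.37 from the earliest to the latest stage.

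These genes lie in rows on the chromosomes in the RefSeq annotation of GRCm38.p6. Dcn, Lum, Kera and Epyc follow each other on chromosome 10, and Aspn, Omd and Ogn on chromosome 13. The relatives in these rows, picked out here for their position and after their values were seen, did not all move one way. Kera, for keratocan, rose by 1.45 ± 0.36 and Epyc, for epiphycan, a proteoglycan known from growth plate cartilage, fell by 1.31 ± 0.16 (limma adjusted p = 0.021 and 0.00215). Aspn, for asporin, was not well above background at E12.5 and rose by 3.01 ± 0.38 to E14.5. Its fitted change after normexp was 1.41. Omd was well above background on no array.

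The bases just upstream of Ogn and Bgn are shown because they are the proteoglycans with the largest rises. Capitals mark matches, on either strand, to 4 short motifs: GGGCGG, the core of a GC box, the CCAAT box, TATAAA, the core of a TATA box, and AGGTCA, the half-site bound by retinoic acid receptors. Sequences are from RefSeq on GRCm38.p6, written 5′ to 3′ on the gene's strand, and those of Ogn, Bgn, Col6a1 and Col6a2 end at the base before the annotated start.
Ogn (chr13:49607765-49608014, plus strand): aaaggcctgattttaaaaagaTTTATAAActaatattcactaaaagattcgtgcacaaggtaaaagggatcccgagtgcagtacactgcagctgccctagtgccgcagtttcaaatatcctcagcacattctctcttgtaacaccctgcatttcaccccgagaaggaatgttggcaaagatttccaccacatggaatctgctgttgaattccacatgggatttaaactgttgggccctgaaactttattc
Bgn (chrX:73483351-73483600, plus strand): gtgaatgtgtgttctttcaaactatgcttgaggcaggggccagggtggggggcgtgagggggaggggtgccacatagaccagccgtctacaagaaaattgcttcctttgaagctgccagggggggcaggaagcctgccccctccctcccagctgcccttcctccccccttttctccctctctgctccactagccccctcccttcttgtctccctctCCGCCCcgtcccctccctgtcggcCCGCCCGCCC
The Ogn stretch, which RefSeq also places inside the record of Cenpp, had 42.0% G and C and held a TATAAA match on each strand, overlapping. The Bgn stretch had 64.4% G and C and 3 GGGCGG matches, of which 2 overlap. Among 32851 windows of 250 bases before annotated starts, 32.7% held GGGCGG, 33.8% CCAAT, 12.4% TATAAA and 14.0% AGGTCA. Of the 30 matrix genes in that table, 16 held GGGCGG, 8 CCAAT, 3 TATAAA and 3 AGGTCA. A match is a string of letters and not a measured site.

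**Figure D3:**
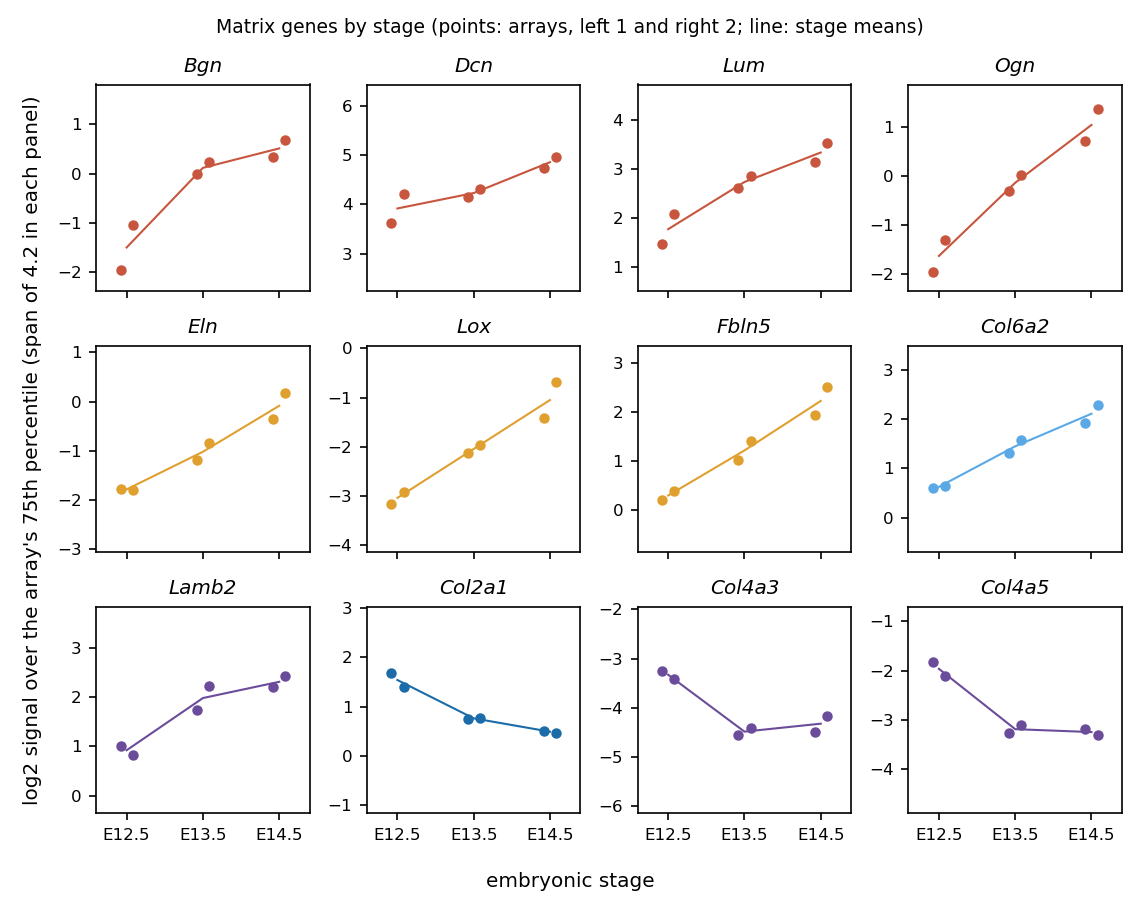
Log2 signal relative to the array's 75th percentile for 12 matrix genes at E12.5, E13.5 and E14.5, with a point per array and a line through the stage means; panels have the same span but different levels. Ogn, Lox and Fbln5 climb in both steps, Bgn and Lamb2 mostly in the first, and Col4a3 and Col4a5 drop in the first step and stay low.

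Of the elastic fibre genes, Eln, Lox and Fbln5 rose, while Fbn1 did not pass and Fbln2 fell. Eln encodes elastin, the elastic core of the fibre. It read -1.77 and -1.80 in the E12.5 pair, -1.19 and -0.84 in the E13.5 pair and -0.35 and 0.18 in the E14.5 pair. The stages did not overlap, and the rise was 1.70 ± 0.21 (3.24-fold, limma adjusted p = 0.00236). Lox encodes lysyl oxidase, which cross-links elastin and collagen. It read -3.15 and -2.92, then -2.13 and -1.95, then -1.42 and -0.67, again without overlap, and rose by 1.99 ± 0.25 (3.97-fold, limma adjusted p = 0.00258). Fbln5, for fibulin-5, which guides elastin onto microfibrils, went from 0.21 and 0.40 through 1.03 and 1.41 to 1.94 and 2.51. Its rise was 1.92 ± 0.23 (3.79-fold, limma adjusted p = 0.00219). For all 3 genes the later step was about as large as the earlier one or larger, at 0.93, 0.99 and 1.01, without passing in the fit used here (adjusted p = 0.116, 0.142 and 0.118). Over the alternatives to that fit, adjusted p in this step ran from 0.032 to 0.48 for Eln, 0.045 to 0.544 for Lox and 0.0288 to 0.492 for Fbln5.

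Fbn1, for the fibrillin-1 of the microfibril itself, did not share this course. It read -0.06 and -0.21 in the E12.5 pair, -0.55 and 0.25 in the E13.5 pair and -0.28 and 0.63 in the E14.5 pair. Its duplicates at the later stages lay 0.80 and 0.91 apart, more than any stage difference, and the change of 0.31 ± 0.37 did not pass (limma adjusted p = 0.515; 95% interval -0.59 to 1.21).

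The other fibulins went in opposite directions. Fbln1, for fibulin-1, read 1.49 and 1.43, then 1.70 and 1.93, then 2.27 and 2.12, and rose by 0.73 ± 0.13 (limma adjusted p = 0.00636). Fbln2, for fibulin-2, which binds basement membrane and microfibril proteins, read 5.26 and 5.22 at E12.5 and between 4.32 and 4.55 on the 4 later arrays. Its fall by 0.81 ± 0.12 (limma adjusted p = 0.00408) was in place at E13.5, at -0.76, and passed with each array left out.

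Among the adhesive and matricellular glycoproteins, Tnc and Postn changed and Fn1 and Sparc did not pass over the whole window. Tnc, for tenascin-C, read -1.76 and -2.12 in the E12.5 pair, -3.46 and -2.91 in the E13.5 pair and -3.34 and -2.54 in the E14.5 pair. Both E12.5 arrays were above all later ones, and the fall over the window was by 0.997 ± 0.31 (limma adjusted p = 0.0435). The call was lost when leaving out either E12.5 array (-0.82 and -1.18, adjusted p = 0.174 and 0.0824) or the first E14.5 array (-0.60, adjusted p = 0.157). A dimmer Tnc probe, above background on 2 arrays, changed by 1.21, and with the mean of both probes the change was 0.11 (adjusted p = 0.694; range over the alternatives 0.00682 to 0.694).

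Postn, for periostin, read 0.74 and 0.72, then 0.72 and 0.74, then 1.10 and 1.12, so that its duplicates were nearly equal and only E14.5 stood higher. The rise of 0.38 ± 0.10 (limma adjusted p = 0.0219) moved to between 0.0516 and 0.0857 when any 1 of the 6 arrays was left out, with a change of 0.37 to 0.39. Fn1, for fibronectin, read 0.93 and 1.10 in the E12.5 pair, 0.87 and 1.62 in the E13.5 pair and 0.91 and 1.70 in the E14.5 pair. Its second later arrays were high and its first later arrays were at the E12.5 level (change 0.29 ± 0.33, limma adjusted p = 0.498). Sparc, for the collagen-binding protein osteonectin, read 5.66 and 5.69 at E12.5 and between 5.11 and 5.37 later. From E12.5 it changed by -0.43 in the first step (limma adjusted p = 0.0455) and by -0.38 over the window (limma adjusted p = 0.0503). A second Sparc probe, also above background on all 6 arrays, read -0.74 in the first step and -0.74 over the window. Over the window Sparc passed with the mean of all probes, with median scaling and with a trended robust prior. It also passed when genes had to be above background on all 6 arrays. The first-step call was lost in all 6 fits that left out an array (-0.56 to -0.30, adjusted p 0.063 to 0.228).

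Among the collagens of the group, the type VI chains had the largest rises. Col6a1 and Col6a2 encode the short chains of the type VI trimer. Col6a1 read 1.84 and 1.90 in the E12.5 pair, 2.42 and 2.71 in the E13.5 pair and 2.95 and 3.43 in the E14.5 pair. Col6a2 read 0.61 and 0.64, then 1.31 and 1.59, then 1.93 and 2.30. Neither had overlapping stages, and they rose by 1.32 ± 0.19 (2.5-fold, limma adjusted p = 0.0037) and 1.49 ± 0.16 (2.80-fold, adjusted p = 0.00177). The genes are neighbours on chromosome 10, both on the minus strand, and each has its own upstream stretch, shown here because the chains rose side by side.
Col6a1 (chr10:76726045-76726294, minus strand): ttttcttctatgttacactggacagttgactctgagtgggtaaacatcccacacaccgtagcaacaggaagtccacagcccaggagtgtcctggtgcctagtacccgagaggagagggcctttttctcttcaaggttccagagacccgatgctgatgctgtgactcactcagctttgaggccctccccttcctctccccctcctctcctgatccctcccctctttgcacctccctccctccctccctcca
Col6a2 (chr10:76623631-76623880, minus strand): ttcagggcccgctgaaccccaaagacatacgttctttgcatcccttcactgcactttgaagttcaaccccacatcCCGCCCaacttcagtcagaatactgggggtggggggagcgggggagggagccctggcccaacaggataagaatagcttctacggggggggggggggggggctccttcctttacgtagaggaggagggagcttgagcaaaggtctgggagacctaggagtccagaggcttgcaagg
The Col6a1 stretch had 56.0% G and C and none of the 4 motifs, and the Col6a2 stretch had 59.2% and 1 GGGCGG match.

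The remaining interstitial collagens did not pass over the window. Col9a3, a chain of the type IX collagen that sits on type II fibrils, read 3.0 and 3.0 in the E12.5 pair, 3.45 and 3.38 in the E13.5 pair and 3.23 and 2.98 in the E14.5 pair. It rose by 0.41 ± 0.12 to E13.5 (limma adjusted p = 0.047) and was 0.31 lower again at E14.5 (adjusted p = 0.255). The E13.5 call was lost without any of the E12.5 or E13.5 arrays (0.38 to 0.45, adjusted p 0.119 to 0.182). Col14a1, for a collagen that associates with fibril surfaces, fell short of the threshold with a change of -0.43 ± 0.17 (adjusted p = 0.0856).

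Fibrillar collagens split between type I, which rose, and type II, which fell. Col1a1 and Col1a2 encode the chains of type I collagen. Col1a1 read 4.18 and 4.28 in the E12.5 pair, 4.35 and 4.64 in the E13.5 pair and 4.86 and 5.33 in the E14.5 pair. Col1a2 read 5.40 and 5.57, then 5.97 and 6.12, then 6.06 and 6.44. They rose by 0.86 ± 0.19 (1.82-fold, limma adjusted p = 0.0141) and 0.76 ± 0.16 (1.70-fold, adjusted p = 0.0126), Col1a1 mostly in the later step (0.60) and Col1a2 in the earlier one (0.56). With the first E12.5 array left out neither passed (0.81 and 0.68, adjusted p = 0.0645 and 0.0594), and Col1a1 also missed the threshold with the second E14.5 array left out (0.63, adjusted p = 0.0525).

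Col5a1 and Col5a2, for type V collagen, which starts type I fibrils, changed by 0.46 ± 0.17 and 0.59 ± 0.18. Only Col5a2 passed (limma adjusted p = 0.0402, against 0.0641), and it did not in 5 of the 6 fits that left out an array (0.36 to 0.63, adjusted p 0.0542 to 0.151). Among the alternatives, Col5a1 passed with the filter on all arrays, the mean of all probes and the trended robust prior. Its second probe, above background on all arrays, read 0.86. Col5a2 lost its call with median scaling, no background filter, unnamed probes kept or the arrays of E12.5 and E14.5 alone. Col3a1, for type III collagen, was within 0.05 of its start at E14.5 (-0.05 ± 0.12, limma adjusted p = 0.765) after a dip of 0.37 at E13.5 that did not pass. Col11a1, for a minor chain of cartilage fibrils, changed by 0.22 ± 0.17 (adjusted p = 0.331).

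Col2a1 encodes type II collagen, the main fibril of cartilage. It read 1.68 and 1.40 in the E12.5 pair, 0.74 and 0.78 in the E13.5 pair and 0.51 and 0.47 in the E14.5 pair. The stages did not overlap, and the fall was by 1.05 ± 0.13 (limma adjusted p = 0.00228). Cartilage markers moved beside it. Of 8 such genes tested, 1 rose and 5 fell, where 25.5% of all genes were higher and 21.2% lower. The summed linear signal of the list ranged from 13.34 to 15.67 at E12.5 and from 6.292 to 8.061 at E14.5. Most of that sum was Col9a2, so it does not stand for the list. Among the 8 genes, Col9a1 and Col9a2, the partners of Col9a3, fell by 2.16 ± 0.17 and 1.0 ± 0.18 (limma adjusted p = 0.000748 and 0.00676). Sox6 fell by 1.3, and its other probes read -0.48, -0.43 and -1.38. Comp rose, from -4.43 and -4.98 at E12.5 to -3.90 and -3.68 at E14.5. Acan, for the large cartilage proteoglycan, changed by 0.16 (limma adjusted p = 0.515). Matn1 was well above background on no array. The part of cartilage cells in the Col2a1 result was not tested.

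Type IV collagen chains did not move as a family. The genes stand head to head in pairs that share a promoter region. In RefSeq the starts of Col4a1 and Col4a2, the chains found in nearly all basement membranes, overlap on chromosome 8 by 22 bases, which are printed to show how close they are, with a GGGCGG match in capitals.
Col4a1 and Col4a2 overlap (chr8:11312805-11312826, plus strand, the strand of Col4a2): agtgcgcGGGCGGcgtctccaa
Col4a1 read between 2.87 and 3.41 and Col4a2 between 2.85 and 3.26 on all 6 arrays. Their changes over the window were -0.33 ± 0.13 and -0.11 ± 0.15, and neither passed (limma adjusted p = 0.0813 and 0.591).

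The chains known from specialised membranes such as those of the kidney glomerulus did change. Col4a3 read -3.24 and -3.41 in the E12.5 pair, -4.55 and -4.41 in the E13.5 pair and -4.48 and -4.16 in the E14.5 pair. Col4a5 read -1.83 and -2.10, then -3.27 and -3.11, then -3.18 and -3.32. Both had E12.5 arrays above all later ones, fell by 1.15 and 1.23 in the first step, and ended at -0.99 ± 0.15 and -1.28 ± 0.14 (limma adjusted p = 0.00408 and 0.00165). Their size depended on the processing. Over the alternatives the window change ran from -1.15 to -0.44 for Col4a3 and from -1.43 to -0.82 for Col4a5. Col4a4, the partner of Col4a3, did not pass, with a change of -0.23 ± 0.11 (adjusted p = 0.154). Of 4 glomerulus markers tested beside them, 2 fell, where 21.2% of all genes were lower. The summed signal of the list went from between 2.366 and 2.496 at E12.5 to between 1.747 and 1.761 at E14.5. Mesonephros and duct markers fell too (3 of 7, with 1 rise), from between 2.516 and 2.577 to between 0.751 and 1.155. Their part in these results was not tested.

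Col4a6, the partner of Col4a5, went the other way. It read -2.74 and -2.28 in the E12.5 pair, -1.91 and -1.77 in the E13.5 pair and -1.77 and -1.97 in the E14.5 pair, and rose by 0.64 ± 0.18 (limma adjusted p = 0.0297). It did not pass with the first E12.5 array left out (0.41, adjusted p = 0.0935) or either E14.5 array (0.54 and 0.74, adjusted p = 0.117 and 0.0637), and a dimmer probe changed by 0.10. The annotated starts of the pair on chromosome X have 1342 bases between them. The stretches upstream of each start are shown because the pair moved in opposite directions; they stop short of the start used for that distance, because the gene's own RefSeq record begins further upstream.
Col4a5 (chrX:141475169-141475369, plus strand): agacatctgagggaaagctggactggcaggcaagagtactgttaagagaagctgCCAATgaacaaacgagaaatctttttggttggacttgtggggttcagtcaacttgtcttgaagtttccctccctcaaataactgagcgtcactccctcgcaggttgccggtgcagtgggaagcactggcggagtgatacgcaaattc
Col4a6 (chrX:141474096-141474326, minus strand): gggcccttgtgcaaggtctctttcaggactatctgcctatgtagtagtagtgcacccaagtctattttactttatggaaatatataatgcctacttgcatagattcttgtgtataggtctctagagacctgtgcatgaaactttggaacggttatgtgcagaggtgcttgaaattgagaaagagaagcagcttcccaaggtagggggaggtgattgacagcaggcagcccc
The Col4a5 stretch is 201 bases long with 49.8% G and C and 1 CCAAT match, and the Col4a6 stretch is 231 bases long with 45.5% and none of the 4 motifs.

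Laminins assemble from alpha, beta and gamma chains. Of the 6 laminin chains of the group with a probe, Lamb2 alone passed in the fit used here. It encodes the beta-2 chain and read 1.01 and 0.83 in the E12.5 pair, 1.74 and 2.22 in the E13.5 pair and 2.19 and 2.42 in the E14.5 pair. It rose by 1.39 ± 0.19 (2.62-fold, limma adjusted p = 0.00312), mostly in the first step (1.06). In that step it did not pass when the second E12.5 array was left out (0.97, adjusted p = 0.0547). Lamb1, the beta-1 chain, changed by 0.36 ± 0.15 (adjusted p = 0.102), and Lamc1, the gamma-1 chain shared by most laminins, by -0.34 ± 0.19 (adjusted p = 0.192).

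The alpha chains Lama1, Lama2 and Lama4 had higher means at each later stage but did not pass. Lama2, the alpha chain of muscle basement membranes, read -1.34 and -1.62 in the E12.5 pair, -1.52 and -0.57 in the E13.5 pair and -0.81 and 0.17 in the E14.5 pair. The E14.5 arrays were above both E12.5 arrays but lay 0.98 apart, so that a change of 1.16 ± 0.41 gave a limma adjusted p of 0.0631 (range over the alternatives 0.0101 to 0.252). Lama1, the alpha chain of early epithelial membranes, changed by 0.62 ± 0.33 (adjusted p = 0.173), and Lama4, known from vessels, by 0.43 ± 0.14 (adjusted p = 0.0502). The other Lama4 probes read 0.65 and 0.57. Among the alternatives, Lama4 passed with quantile normalization, the mean of all probes, the filter on all arrays and the trended robust prior. The nidogens Nid1 and Nid2 had their lowest means at E13.5 and ended at -0.20 ± 0.14 and -0.27 ± 0.14 (adjusted p = 0.287 and 0.158). Col15a1 and Col18a1, for collagens that carry heparan sulfate or chondroitin sulfate chains in the basement membrane zone, changed by 0.12 ± 0.12 and -0.25 ± 0.12 (adjusted p = 0.469 and 0.128). The median of the 16 basement membrane genes was 0.00 after normexp correction, 0.06 with the mean of all probes and -0.30 with median scaling, so its sign rests on the processing.

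Several matrix genes differed between duplicates of the later stages in the same sense. The array numbered 2 read higher than the array numbered 1 for 37 of 41 genes at E13.5 and 35 of 41 at E14.5, against 45.7% and 43.3% of all genes. At E12.5 it did so for 20 of 41, against 48.6% of all genes. The median difference of the matrix genes was -0.01, 0.23 and 0.32 at the 3 stages. It was widest in Lama2 (0.95 and 0.98 at E13.5 and E14.5), Fbn1 (0.80 and 0.91), Fn1 (0.75 and 0.79), Lama1 (0.91 and 0.61) and Tnc (0.56 and 0.79). The duplicate number is a name in the files and gives no order of the samples.

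**Figure D4:**
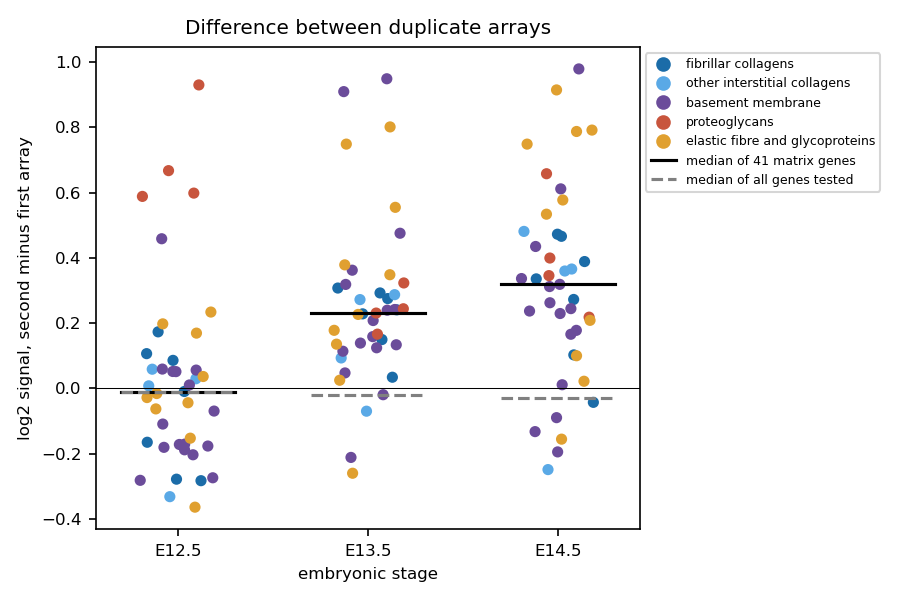
Log2 signal of the second minus the first array for the 41 matrix genes at each stage, a point per gene coloured by class, with the median of these genes (black) and of all 13489 genes (dashed grey). At E12.5 both medians are at -0.01, and at E13.5 and E14.5 the matrix genes sit higher, at medians of 0.23 and 0.32.

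Marker lists of other cells differed between the same arrays. Peritubular and smooth muscle genes were higher on the second array for 6 of 7 genes at E13.5 and 6 of 7 at E14.5 (medians 0.34 and 0.36), and fetal Leydig genes for 4 of 4 at each stage. Erythroid genes were higher on the second array for 0 of 6 genes at E13.5 and 2 of 6 at E14.5. Arrays of the same number were also set against each other. Of the 41 matrix genes, 29 were higher at E14.5 than at E13.5 for both numbers and 5 were lower for both. This count was not made over all genes, and the number was not taken to pair samples, so no rise is read from it.

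The marker lists were also read by stage, beside the matrix genes. Over all genes, 25.5% were higher and 21.2% lower at E14.5 than at E12.5. Of 7 peritubular and smooth muscle genes, 6 rose from E12.5 to E14.5, led by Cnn1 (3.19 ± 0.24), Tagln (2.20 ± 0.23), Acta2 (2.18 ± 0.20) and Myh11 (1.49 ± 0.36), and other Acta2 probes read 0.19 and 1.83. Myh11 did not pass with either E12.5 array or with array 2 of E14.5 left out (adjusted p up to 0.0856, change 1.05 to 1.93 with an array left out). The summed linear signal of the list went from 11.35 and 15.31 at E12.5 through 28.96 and 35.43 to 46.51 and 56.52 at E14.5. All 4 fetal Leydig genes rose, with sums of 2.571 and 3.613 at E12.5 and 60.02 and 80.36 at E14.5. The interstitial progenitor sum stayed between 28.01 and 35.38 on all arrays (2 of 8 genes rose, 25%, near the share of all genes). The endothelial sum went from between 15.69 and 16.19 to between 12.3 and 12.67 (2 of 7 fell, 28.6%). Erythroid sums went from 114.7 and 151 to 31.84 and 16.45 (4 of 6 genes fell). Sertoli cell genes, of which 2 of 8 rose (Cst9 and Nr5a1) and 2 fell (Sox9 and Fgf9), summed to 121.5 and 145.1 at E12.5. At E14.5 they summed to 176.8 and 171.5. Cst9 was the brightest gene of that list on every array and rose by 0.83, so the sum does not stand for the list. The Cst9 rise did not pass with either E14.5 array left out (change 0.52 to 1.15 with an array left out). Macrophage sums went from 1.744 and 1.973 to 3.503 and 4.18 (2 of 6 rose), and germ cell sums from 40.25 and 51.1 to 74.16 and 58.73 (3 of 6 rose and 1 fell). The part of these cells in the matrix results was not tested.

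Probes of the same gene did not always read the same change. Of 20 matrix genes with several probes, 15 had at least 2 that were above background on all arrays. In 3 of these, Col3a1, Col4a1 and Col4a2, the brightest and the other probe had opposite signs over the window: -0.05 and 0.74, -0.33 and 0.40, and -0.11 and 0.29. In Col1a1 the 3 probes read 0.86, 1.02 and 2.15, and in Col2a1 the 2 read -1.05 and -2.25, the same direction with different sizes. Lama2 (1.16 and 1.15), Col4a3 (-0.99 and -0.90) and Col18a1 (-0.25 and -0.27) gave close values. The other 21 genes had 1 probe, so no such check was possible for Ogn, Bgn, Lum, Dcn, Eln, Lox, Col6a1, Col6a2 or Lamb2.

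**Figure D5:**
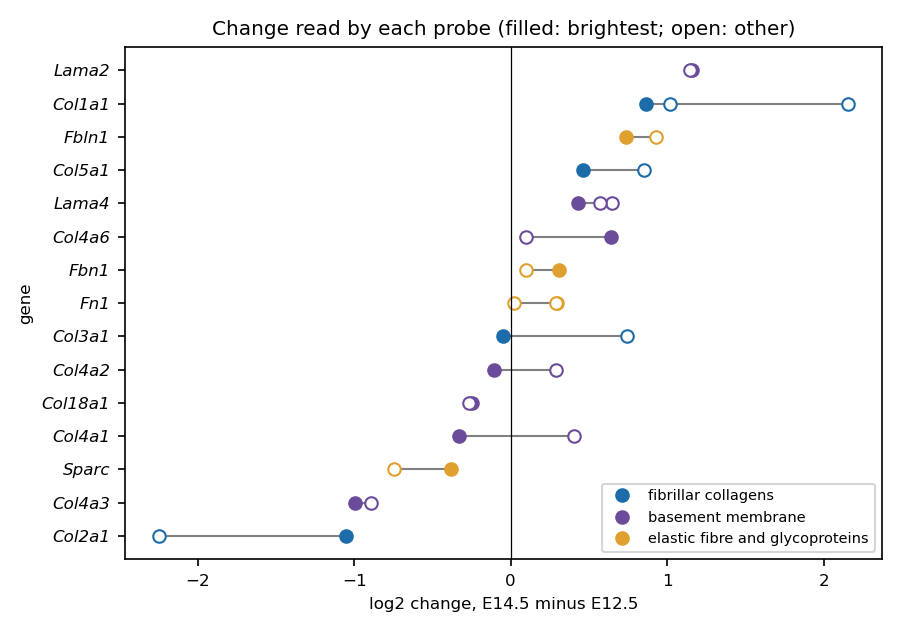
Log2 change from E12.5 to E14.5 read by each probe above background on all 6 arrays, for the 15 matrix genes with several such probes; filled points are the brightest probe and open points the others. Col3a1, Col4a1 and Col4a2 have probes on both sides of 0, and Col1a1 and Col2a1 spread widest.

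The genes that process, cut and bind this matrix were read against the 46.7% of all genes past the threshold from E12.5 to E14.5. Of 25 collagen-modifying enzymes and chaperones tested, 9 rose and 3 fell (48%, median 0.26), which is near that share. The prolyl 3-hydroxylases P3h2 and P3h3 rose by 1.08 ± 0.17 and 1.05 ± 0.11. P4ha3, a prolyl 4-hydroxylase subunit, and Loxl4, a relative of Lox, were not well above background at E12.5. P4ha3 rose by 1.65 ± 0.22, and Loxl4 was at least 1.66-fold higher at E14.5. The Loxl4 call was lost without the second E12.5 array, without either E14.5 array and with the trended robust prior (adjusted p up to 0.087; change 0.65 to 1.32 with an array left out), and the fitted P4ha3 change was 0.86 after normexp. Of 16 matrix proteases and inhibitors, 7 rose and 1 fell (50%, median 0.40), also near the share of all genes. The protease Adamts10 rose by 1.0 ± 0.13, Mmp23 by 0.84 ± 0.13 and the inhibitor Timp1 by 0.75 ± 0.11, while Mmp16, a membrane-bound protease, was not well above background at E14.5 and was at least 7.76-fold lower. That bound belongs to the signals used here, since after normexp correction the fitted change of Mmp16 was -0.51.

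Of 24 matrix receptors, 5 rose and 3 fell (33.3%, median 0.12), against 46.7% of all genes. Itga8, the integrin alpha chain that binds nephronectin, fell by 1.90 ± 0.14, and Itgav by 1.08 ± 0.20, whereas Itga7, a laminin receptor chain, rose by 1.34 ± 0.17. Itgav did not pass after normexp correction (-0.21, adjusted p = 0.173), and a second Itga7 probe, above background on 4 arrays, read 4.28. Itga4 rose by 0.91 ± 0.18 with its brightest probe and read -0.94 and -0.07 with its others. Of 17 further collagens and laminins, 6 rose and 3 fell (52.9%, median 0.49), with Col8a1 at 1.39 ± 0.34, Col16a1 at 1.03 ± 0.15 and Lamc3 at 1.41 ± 0.21, the last with a second probe at -0.01. With the first or the second E14.5 array left out Col8a1 did not pass, with a limma adjusted p of up to 0.0694 and a change of 0.83 to 1.95 over all fits that left out an array. Of 36 other matrix proteins, 18 rose and 9 fell (75%, median 0.48), led beside Aspn by Mfap4, a microfibril protein (2.25 ± 0.15), Thbs2, for thrombospondin-2 (2.25 ± 0.24), and Prelp, another leucine-rich repeat proteoglycan (2.19 ± 0.12).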

How the data were processed

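Gonads of Cyp26b1-/- male mouse embryos were measured on 6 one-colour arrays, a pair for each of 3 stages. The deposited scanner files hold spot intensity, background-subtracted by Agilent Feature Extraction 9.5 per the submitters' processing notes and the file headers, not scaled between arrays. The deposited table of the authors holds a linear ratio per probe and stage, whose reference is not stated. Signals were log2-transformed and each array's 75th percentile was subtracted; spots marked as outliers were dropped and the repeats of a probe averaged. RefSeq accessions named 23553 of 41174 probes, taken from the later of 2 design versions where they differed. After 21 of the 41174 probes were left out for missing values, 23545 named probes remained. Positions of probes were not used. The brightest probe stood for a gene, and it had to be well above background in both duplicates of at least 1 stage. For Loxl4 and Mmp16, below background in both duplicates of the dimmer stage, the fold is a bound. Signals there under the array's lowest signal above background were set to that signal. Aspn and P4ha3 had no such signals, so their fitted changes are given. The test was limma's (version 3.58.1, R 4.3.3): lmFit and eBayes without a trend, with stage as the factor over the 6 arrays (two-sided, Benjamini-Hochberg over 13489 genes, adjusted p below 0.05), tested on simulated data. Tables and figures used Python 3.11.15, pandas 2.3.3 and matplotlib 3.10.9.

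The genes and lists, and the rule for genes outside the group (up to 4 of each list with the largest change past the threshold without overlap between E12.5 and E14.5, plus Cyp26b1), were chosen with earlier results of these data known. Genes named beyond that rule (Kera, Epyc, Omd, Acan, Comp and Matn1) were chosen after their values were seen. A marker gene of the mesonephros list is not reported here. The number of arrays limits the precision.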

Additional observations from a re-analysis of the deposited data

How the results depend on the processing

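Stage and slide cannot be told apart for E12.5; with slide as a block E14.5 against E13.5 keeps its values and the other comparisons could not be fitted. Single genes kept direction and side of the threshold in 2869 values under the alternatives, lost a call in 177, gained one in 45 and reversed in 3: Tnc with the mean of all probes (0.11), Itga4 likewise (-0.033), and Sox5 with normexp (0.024). The cause was not tested. For E13.5 against E12.5, the 18 matrix calls became 8 with no background filter and 6 with a 2-fold minimum, and 4 to 17 with an array left out; the 12 rises became 4, 3 and 1 to 12, and 7 with unnamed probes kept; the 6 falls became 3 with a 2-fold minimum and 3 to 5 with an array left out. For E14.5 against E13.5, 0 calls became 4 with normexp and 2 with a trended robust prior, all higher. For E14.5 against E12.5, 21 calls became 11 with a 2-fold minimum (9 higher, 2 lower), and 5 falls became 8 with median scaling or the trended robust prior. Median scaling moved the median of all genes from 0.03 to -0.12 and the share of calls that were higher from 54.7% to 41.1%; the matrix median was then 0.21. Over all genes, 4320 calls became 2865 with no filter, 1164 with a 2-fold minimum and 1396 to 3970 with an array left out; 6299 became 1925 and 3940 to 5446; 7 became 400 with normexp, 333 with the trended prior and 91 with median scaling, and 0 to 42 with an array left out, as well as 0 with no filter, the filter on all arrays, the mean of probes or 4 arrays only, and 1 with unnamed probes. With a replicate block on the array number the matrix calls were 15, 0 and 20 and E14.5 against E13.5 had 1 gene, or 49 on its 4 arrays alone, a fit chosen after seeing the data; deviations of same-numbered arrays correlated at -0.042 and -0.06 between E12.5 and the later stages and at 0.228 between those 2, so the number was not taken to pair samples across all stages. The authors' deposited table gave the same sign as the scanner values for 39, 35 and 41 of 41 matrix genes, at a near constant offset of 0.10, -0.12 and -0.02.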
